A study of Drosophila melanogaster and Drosophila simulans with 11 samples.

Results

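MOF binding in salivary glands of *roX* mutant males was compared with that in wild type glands, with 1 ChIP-seq library for each genotype. These are 2 of the 8 analysed ChIP libraries of a study that mapped proteins of the MSL complex without *roX* RNA in *Drosophila*. The mutant larvae were males that carry *y*, *w*, the allele roX1[ex6] and the deficiency Df(1)roX2[52] on their only X, together with the transgene P[w+ 4Δ4.3], which supplies essential genes removed by this deficiency. The wild type strain was Oregon R. All larvae were grown at 25°C on potato mash, and 125 salivary glands of 3rd instar larvae were pooled for each sample and precipitated with the same anti-MOF antibody. Each MOF library was set against input chromatin of its own genotype. Because the genotypes also differ in strain background and input, the effects of *roX*, background and input cannot be told apart, and with 1 library a side the spread between replicates is unknown and no test was made.

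MOF is the histone acetyltransferase that places the acetyl mark on lysine 16 of histone H4. In males it acts in the MSL complex, which binds active genes along the single X and increases their transcription, and in both sexes it also acts in the NSL complex at promoters on all chromosomes. The noncoding RNAs *roX1* and *roX2* are made from the X, join the MSL complex and are needed for its normal spread along this chromosome. Salivary gland nuclei contain polytene chromosomes, in which the pericentromeric heterochromatin is under-replicated.

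The deposited values give the enrichment of ChIP over input as a log2 ratio every 10 bp along release 5 of the reference sequence. They were compared only at the 4178953 positions with a value in both libraries, as means of 1 kb bins with at least 25 shared values. A level is such a mean minus the median of the same library over the long autosomal arms (2L and 2R, 3L and 3R) without the 2 Mb at their centromere end, so that 0 is the typical autosomal value in each library. This median was -0.04 in *roX* mutants and 0.15 in wild type before subtraction. A difference is the level in *roX* mutants minus that in wild type, on the log2 scale. There were 69643 bins, of which 64293 were on the autosomal arms, 1259 on X, 110 in the 2 Mb at the centromere end of X, 3146 in the corresponding stretches of the arms, 504 on chromosome 4 and 304 on the heterochromatic scaffolds.

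The X chromosome could be compared over a small part of its length only. Values were present at 8.12% of X positions in *roX* mutants, at 21.3% in wild type and at 4.28% in both. On the autosomal arms the shares were 67.6% in *roX* mutants, 50.5% in wild type and 41.8% in both. The X bins lay in 605 separate runs and reached 166 of the 225 stretches of 100 kb, so that they were few but scattered over the chromosome.

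The X bins that could be compared were those with much MOF in wild type. Of 5502 X bins with at least 25 wild type values, 22.9% also passed the limit of shared values. This share was 7.52% for bins with a wild type level between -0.5 and 0, 19.5% between 0.5 and 1, 42.4% between 2 and 2.5 and 80.6% between 3 and 3.5. Over the autosomal arms it was between 92.2% and 98.1% at every wild type level from -1 to 1.5. The median wild type level was 1.51 in the shared X bins and 0.49 in the 4243 X bins with wild type values only. The X values that follow therefore describe the MOF-rich part of the X, and how far they hold for the rest of it was not tested.

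MOF was lower on X in *roX* mutants than in wild type and higher on chromosome 4, on the heterochromatic scaffolds and near the centromeres of the autosomes. In the X bins the median level was 0.27 in *roX* mutants (quartiles 0.08 and 0.52) and 1.52 in wild type (0.68 and 2.26). The median of the difference was -1.07 (-1.75 and -0.48), and 91.5% of the bins had a lower level in *roX* mutants, against 46.3% of all bins. Levels of 1 or more, a 2-fold excess over the arms, were found in 8.50% of the X bins in *roX* mutants and in 65.4% in wild type. Over all bins the shares were 0.426% in *roX* mutants and 1.38% in wild type. Both libraries were thus above the arms on X, but the mutant distribution was narrow and low, and its upper quartile lay below the lower quartile of wild type.

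**Figure D1:**
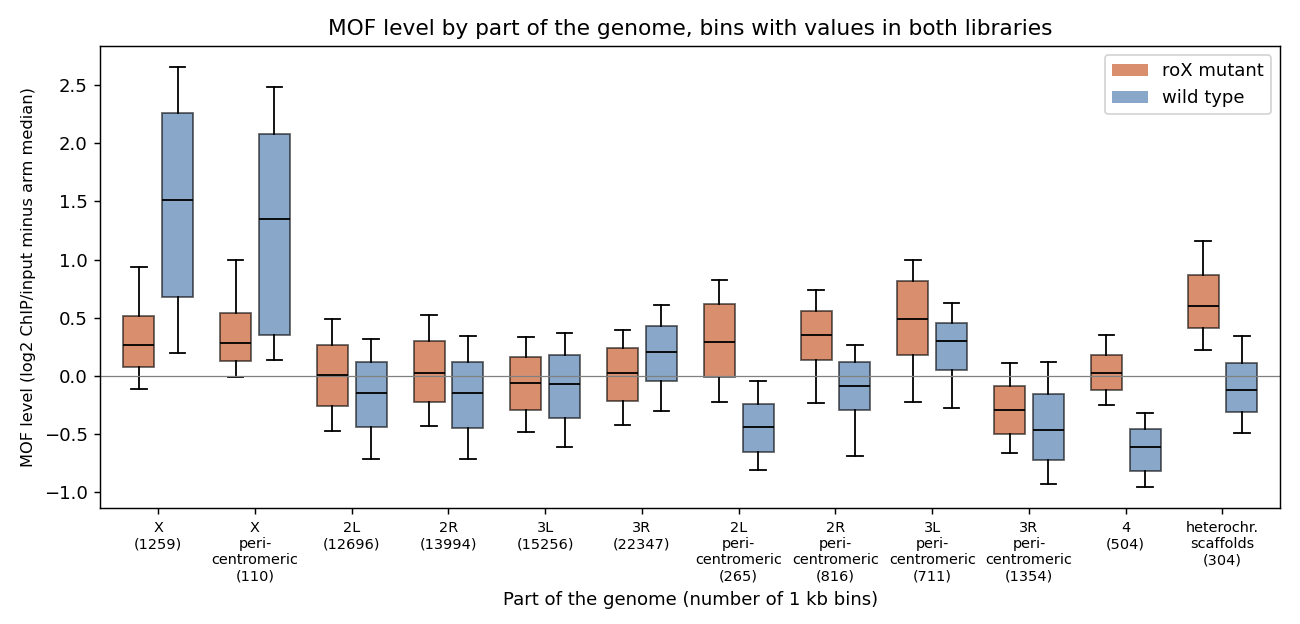
MOF level (y axis, log2 ratio minus the arm median) in 1 kb bins by part of the genome (x axis, number of bins in brackets), with *roX* mutants in orange and wild type in blue. Boxes span the quartiles over bins, lines are medians and whiskers reach the 10th and 90th percentiles, which describe bins of 1 library each. On X the median was 0.27 in *roX* mutants and 1.52 in wild type, and on chromosome 4 it was 0.03 in *roX* mutants and -0.61 in wild type.

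Most bins with a 2-fold lower level in *roX* mutants were on X. Over all bins, 1.14% had a difference of -1 or below, against 676 of the 1259 bins on X, or 53.7% (95% Clopper-Pearson interval 50.9% to 56.5%, which counts bins as independent and covers counting error only). Another 53 of the 110 pericentromeric X bins passed this limit. Together the X held 729 of the 796 bins of this kind, although it held 1369 of all bins. None of the 504 bins of chromosome 4, of the 304 bins of the scaffolds or of the 3146 pericentromeric bins of the arms had such a difference.

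The size of the X difference depended on which bins were used. When each library was described over its own bins, 2629 in *roX* mutants and 5502 in wild type, the X level was 0.23 in *roX* mutants and 0.66 in wild type, and the difference of these medians was -0.42. The mutant level was almost the same in both sets of bins, and it was the wild type level that was lower in the larger set. A bin limit of 10 shared values in place of 25 gave -0.81.

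Within the compared bins, which favour the MOF-rich part of X, the lower level in *roX* mutants was found all along the chromosome. Of the 23 stretches of 1 Mb, 22 held at least 20 bins, and the median difference was negative in each of these, between -1.73 in the 7th and -0.39 in the 15th. The last stretch, with 14 bins, had -0.09. The median level varied between 0.14 and 0.55 in *roX* mutants and between 0.79 and 2.01 in wild type. On the autosomal arms the 90 stretches of 1 Mb had median differences between -0.44 and 0.56. In the 2 Mb at the centromere end of X, the medians were 0.28 in *roX* mutants and 1.35 in wild type, with a difference of -0.93, so that this end did not share the gain seen near the centromeres of the autosomes.

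The X bins were next ordered by their wild type level, which by construction favours the range of wild type over that of the mutants. In the lowest decile of wild type MOF the median level was 0.05 in *roX* mutants and -0.04 in wild type, and in the highest decile it was 0.57 in *roX* mutants and 2.88 in wild type. The mutant level therefore increased by 0.52 across deciles between which wild type increased by almost 3 log2 units. The increase was not even. From the 2nd to the 7th decile the mutant median lay between 0.17 and 0.30, and in the 8th, 9th and 10th decile it was 0.52, 0.50 and 0.57. Bins with a mutant level of 1 or more made up none of the 1st to 3rd decile, 8.73% of the 7th and 23.8% of the 8th and of the 10th. Deciles of mutant MOF, which favour the mutant range instead, gave a different relation. From the lowest to the highest of these deciles the median level went from -0.22 to 1.30 in *roX* mutants and from 0.67 to 2.40 in wild type.

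In the 1st decile of wild type MOF, 62.7% of the X bins had a higher level in *roX* mutants, against 53.7% of all bins. The share of bins with a difference of -1 or below was 0% in the 1st and 2nd decile, 23.0% in the 4th, 65.9% in the 5th and 96.8% in the 10th. Wild type MOF is part of this difference, so the share has to increase with it to some extent. Deciles of wild type MSL2, a library that is not part of the difference but shares the wild type input, gave the same picture. The mutant MOF level was 0.11 in the lowest MSL2 decile and 0.53 in the highest, and the wild type MOF level was 0.12 in the lowest and 2.73 in the highest. MSL2 is the male-specific ubiquitin ligase of the MSL complex.

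**Figure D2:**
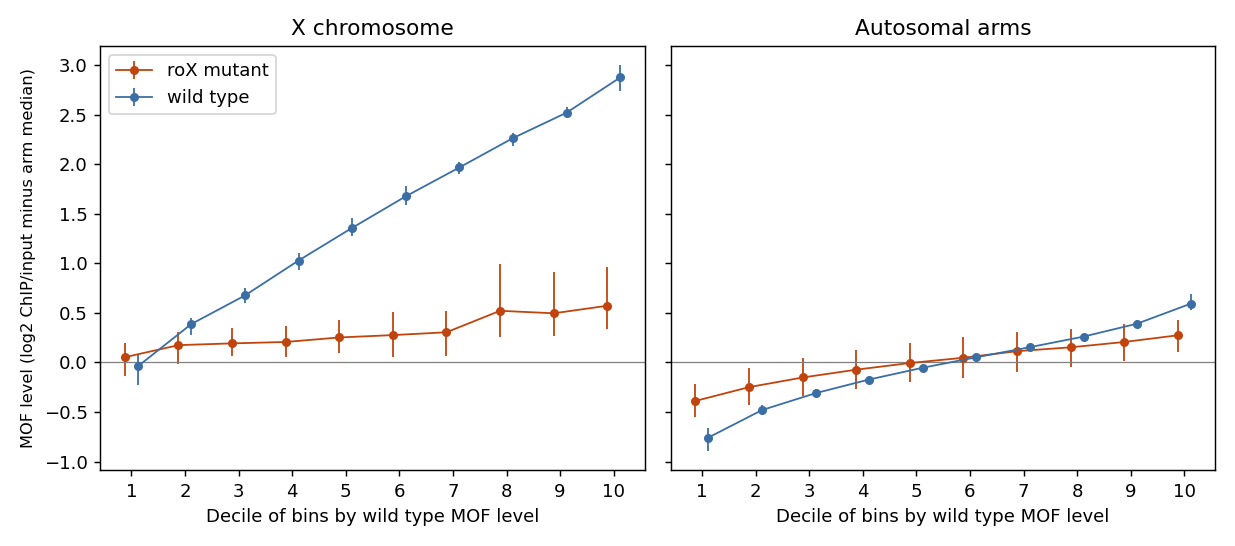
Median MOF level (y axis, log2 ratio minus the arm median) in *roX* mutants (orange) and wild type (blue) in deciles of bins ordered by the wild type MOF level (x axis), on X (left) and on the autosomal arms (right). Bars span the quartiles over bins. On X the mutant median lay between 0.05 and 0.57 while the wild type median lay between -0.04 and 2.88.

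The autosomal arms followed their wild type pattern over a smaller range. The mutant median was -0.39 in the lowest decile of wild type MOF and 0.27 in the highest, where wild type had -0.76 and 0.59. The bins were ordered by the wild type values themselves, so the ranges of the libraries over deciles are not alike by construction. To set the chromosomes side by side, bins with the same wild type level were compared.

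At the same wild type level, X bins and bins of the autosomal arms had similar MOF levels in *roX* mutants, with X higher at the low and lower at the high wild type levels they share. From -0.5 to 0 the mutant median was 0.02 on X (62 bins, quartiles -0.20 and 0.14) and -0.10 on the arms (23098 bins, -0.30 and 0.10). In bins with a wild type level from 0.5 to 1 the mutant median was 0.19 on X (193 bins, quartiles 0.06 and 0.35) and 0.28 on the arms (5577 bins, 0.12 and 0.43). From 1 to 1.5 it was 0.24 on X (185 bins) and 0.33 on the arms (55 bins), and from 0 to 0.5 it was 0.15 on X and 0.14 on the arms. The quartile ranges of X and the arms overlapped at each of these levels. At these levels 7.52% to 28.5% of the X bins with wild type values had enough shared values, against 93.6% to 98.1% on the arms. The X side was thus limited to bins that kept mutant values, and how the other X bins compare was not tested. The arms held no bins with higher wild type levels. On X the mutant median was 0.29 between 1.5 and 2, 0.45 between 2 and 2.5 and 0.54 between 2.5 and 3.

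The heterochromatic scaffolds and chromosome 4 stood above the arms in the same comparison. In bins with a wild type level from -1 to -0.5 the mutant median was 0.53 on the scaffolds (25 bins), 0.01 on chromosome 4 (314 bins), -0.35 in the pericentromeric stretches of the arms (767 bins) and -0.34 on the rest of the arms (8249 bins). From 0 to 0.5 it was 0.57 on the scaffolds (88 bins), 0.39 in the pericentromeric stretches (958 bins) and 0.14 on the arms (26515 bins). On chromosome 4 and on the scaffolds the mutant level hardly varied with the wild type level. In the pericentromeric stretches of all arms together the mutant level increased with the wild type level. These stretches differed by arm: with wild type medians of -0.44 on 2L and -0.46 on 3R, the mutant medians were 0.29 and -0.29. The steps were not separated by arm, and the part of the arms in the increase was not tested.

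**Figure D3:**
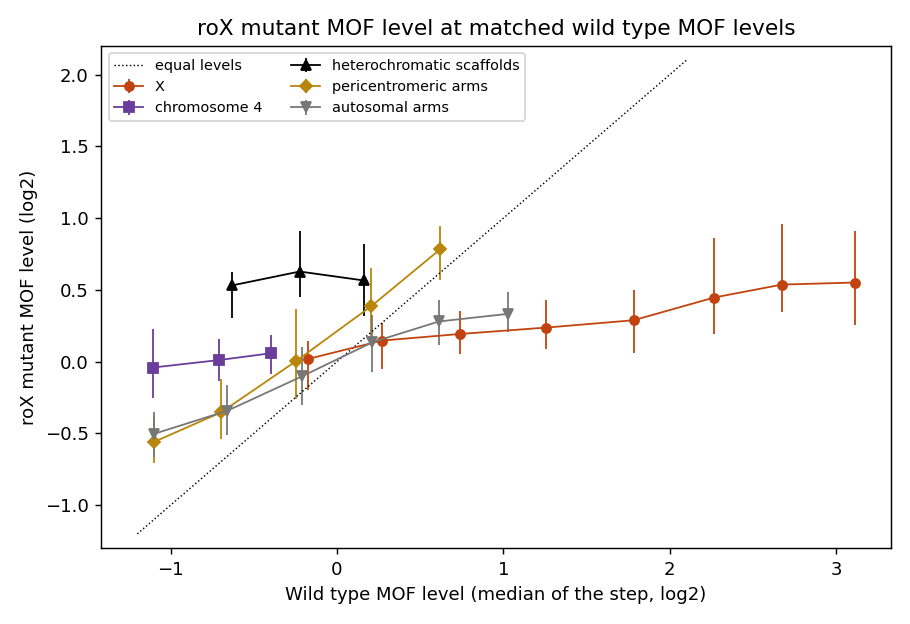
MOF level in *roX* mutants (y axis, log2 ratio minus the arm median) against that in wild type (x axis) for bins grouped in steps of 0.5 of the wild type level, for 5 parts of the genome. Points are medians, bars span the quartiles over bins and the dotted line marks equal levels. The X points from a wild type level of 0 upwards lie below the line and end at a mutant median of 0.55, and those of the scaffolds lie between 0.53 and 0.63, above it.

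MOF on X in *roX* mutants was concentrated where MSL1 was bound in the mutants. MSL1 is the scaffold protein on which the MSL complex is assembled, and its bound regions were defined in the *roX* mutant MSL1 library by the smoothing and cutoff given in the methods of the study. This gave 172 regions on X, a list rebuilt here that is not the study's own and may hold fewer sites, so the overlaps and distances below refer to these regions only. In the 514 X bins that overlap such a region, with the pericentromeric stretch included, the median MOF level was 0.61 in *roX* mutants (quartiles 0.40 and 0.97) and 2.13 in wild type (1.56 and 2.55). In the 109 bins up to 1 kb away it was 0.20 in *roX* mutants and 1.31 in wild type, and in the 104 bins at 2 to 5 kb it was 0.12 in *roX* mutants and 0.74 in wild type. Beyond this distance the mutant level stayed between 0.11 and 0.17, while in the 274 bins over 50 kb away wild type had a median of 1.03. Wild type MOF was therefore found on X both near and far from these regions, and the mutant level away from them was close to that of the autosomal arms.

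**Figure D4:**
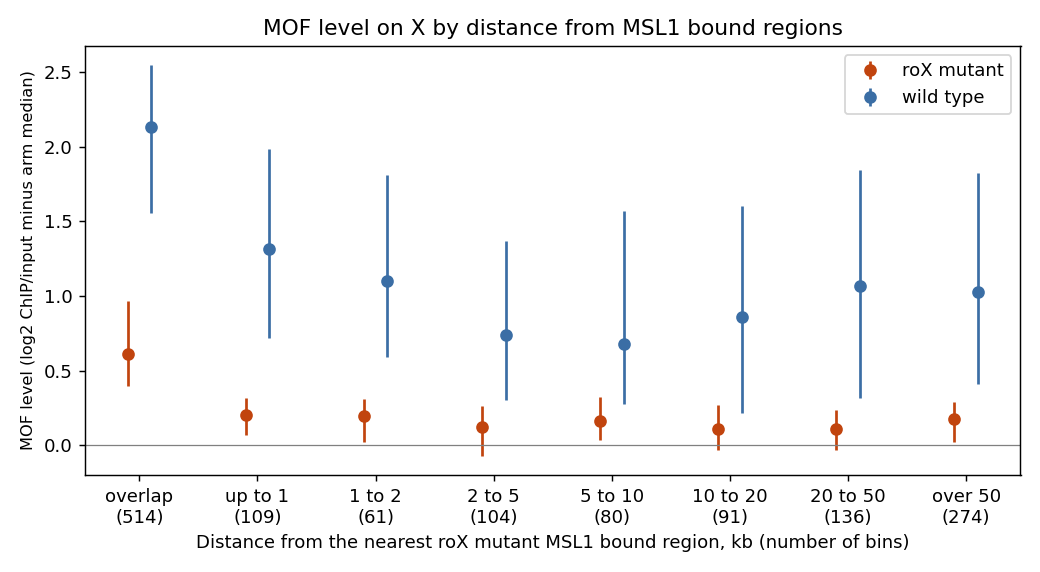
MOF level on X (y axis, log2 ratio minus the arm median) in *roX* mutants (orange) and wild type (blue) by distance from the nearest MSL1 bound region of *roX* mutants (x axis, kb, number of bins in brackets). Points are medians and bars span the quartiles over bins. The mutant median was 0.61 in overlapping bins and 0.11 to 0.20 in all other classes, and the wild type median was at least 0.68 in each class.

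All 118 X bins with a mutant MOF level of 1 or more overlapped an MSL1 bound region, compared with 37.5% of all X bins. They formed 40 clusters more than 5 kb apart. Their median MOF level was 1.33 in *roX* mutants and 2.39 in wild type, so that MOF was below the wild type level also at these sites, with a median difference of -0.98. A high wild type level alone did not mark such bins. Of the 452 X bins with a wild type level of 2 or more, 63.9% overlapped an MSL1 bound region, and of the 107 among them with a mutant level under 0.25, 13 (12.1%) did. In these 107 bins, in 66 clusters, the median level was 0.10 in *roX* mutants and 2.36 in wild type. The *roX* mutant MSL1 and MOF libraries share an input, and their part in this overlap was not tested.

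The mutant MOF level followed mutant MSL1 more closely than wild type MOF. Over the bins of X the correlation with mutant MSL1 was 0.87 (Pearson, 1109 bins) and that with wild type MOF 0.48 (1259 bins), while wild type MOF and wild type MSL2 had a correlation of 0.90 (1254 bins). Libraries of 1 genotype share an input and neighbouring bins are not independent, so these values are descriptions. When X bins were divided into 4 equal groups by mutant MSL1, the MOF level in *roX* mutants was 0.06, 0.15, 0.35 and 0.87 from the lowest to the highest group, and that in wild type was 0.88, 1.27, 1.88 and 2.32. Within the lowest MSL1 group the mutant level stayed at 0.05, 0.10, 0.01 and 0.13 over 4 groups of increasing wild type MOF (140, 81, 43 and 14 bins), whose medians were 0.28, 1.34, 1.98 and 2.51. Within the highest MSL1 group it was 0.48, 0.65, 0.87 and 0.96, over 5, 43, 91 and 138 bins. Where MSL1 was low in the mutants, bins rich and poor in wild type MOF thus had about the same mutant MOF level.

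The depth of the comparison moved with the level. In X bins with 25 to 49 shared values the median was 0.17 in *roX* mutants and 1.03 in wild type, and in those with 75 to 100 it was 0.83 in *roX* mutants and 2.29 in wild type. The differences were -0.85 and -1.32. Read depth is not given, so a bin with few values may be either poorly covered or poorly bound, and these cannot be told apart.

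The highest mutant levels on X were found in bins at least 20 kb apart that also had high wild type levels. The bin at 14945001 to 14946000 on X had a level of 2.15 in *roX* mutants and 2.71 in wild type. That at 16850001 to 16851000 had 2.13 in *roX* mutants and 2.17 in wild type, and that at 656001 to 657000 had 2.00 in *roX* mutants and 2.25 in wild type, so that the levels of both genotypes were close at these 2 sites. The other bins of the 5 highest, at 4598001 to 4599000 and 13094001 to 13095000, had 1.88 and 1.86 in *roX* mutants against 2.66 and 2.98 in wild type. All 5 overlapped an MSL1 bound region, with mutant MSL1 levels between 3.72 and 4.36.

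The bins with the highest wild type levels gave a mixed picture in the mutants. The highest, at 6430001 to 6431000, had a level of 0.32 in *roX* mutants and 3.38 in wild type and lay 0.49 kb from an MSL1 bound region. The bin at 1972001 to 1973000 had 0.20 in *roX* mutants and 3.35 in wild type, and its nearest MSL1 bound region was 49 kb away. The 3 others overlapped such a region. They had 0.60, 1.10 and 1.504 in *roX* mutants against 3.36, 3.34 and 3.26 in wild type, at 19384001 to 19385000, 7619001 to 7620000 and 20921001 to 20922000. Sites with nearly equal MOF in wild type thus had very different levels in the mutants. The bins with mutant levels of 0.32 and 0.20 rest on 37 and 42 shared values, and the 3 others on 80, 100 and 99. The mutant contrast therefore ran along with coverage, and the part of coverage in it was not tested.

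On chromosome 4, the small and mostly heterochromatic autosome, MOF was higher in *roX* mutants throughout. The median level was 0.03 in *roX* mutants (quartiles -0.12 and 0.18) and -0.61 in wild type (-0.82 and -0.46), with a median difference of 0.64. Of the 504 bins, 99.2% had a positive difference, against 53.7% of all bins. A difference of 1 or more was found in 69 bins, or 13.7%, against 0.718% of all bins. Most of the change was therefore moderate, and it consisted of a move to the level of the arms from below it. Among bins with a wild type level from -1 to -0.5, the median difference was 0.73 on chromosome 4 and 0.35 on the arms. The median MSL2 level on chromosome 4 was -0.16 in *roX* mutants and -0.14 in wild type. Chromosome 4 was covered more fully in the mutants, with a value at 67.8% of the positions in *roX* mutants and 22.0% in wild type.

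Stretches of 100 kb along chromosome 4 had median differences between 0.43 and 1.08, and the highest was the last, from 1200001 to 1285040. There the median was 0.37 in *roX* mutants and -0.82 in wild type, and it held 8 of the bins with a mutant level of 1 or more. The bin at 1226001 to 1227000 stood out with a level of 2.23 in *roX* mutants and -1.13 in wild type, and those at 330001 to 331000 and 143001 to 144000 had 1.32 and 0.99 in *roX* mutants against -0.77 and -0.92 in wild type. Mutant MSL1 was also high in these 3 bins, with levels of 4.28, 3.02 and 2.51. In the bin at 1133001 to 1134000 the MOF level was 0.55 in *roX* mutants and -0.95 in wild type, with a mutant MSL1 level of 0.18, and in that at 1257001 to 1258000 it was 0.94 in *roX* mutants and -0.51 in wild type, with an MSL1 level of 1.31. Over all bins of chromosome 4 the median mutant level was 0.04 for MSL1 and 0.03 for MOF, both close to the typical level of the arms. The positive MOF difference of nearly all bins is taken against wild type MOF, and there is no wild type MSL1 library for a like comparison. On chromosome 4, 18 MSL1 bound regions were found.

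The heterochromatic scaffolds, which hold the assembled repeat-rich DNA next to the centromeres, had the highest median level of these parts in *roX* mutants. It was 0.60 in *roX* mutants (quartiles 0.41 and 0.87) and -0.12 in wild type (-0.31 and 0.11), with a difference of 0.75. A difference of 1 or more was found in 82 of 304 bins, or 27.0%, against 0.718% of all bins. The scaffolds differed among themselves. The median difference was 1.08 on 3RHet (49 bins), 0.97 on 2LHet (9 bins), 0.79 on 2RHet (104 bins) and 0.70 on 3LHet (111 bins), whereas on XHet (31 bins) it was -0.17, with medians of 0.47 in *roX* mutants and 0.49 in wild type. The heterochromatin assigned to X thus had no gain. The highest differences were on 3LHet at 596001 to 597000, with 2.00 in *roX* mutants and -0.31 in wild type, and on 3RHet at 1814001 to 1815000 and 1897001 to 1898000, with 1.26 and 1.35 in *roX* mutants against -0.63 and -0.45 in wild type. In this order the bins rest on 98, 27 and 56 shared values. Only 2.00% of the scaffold positions had a value in both libraries, and only uniquely mapped reads entered these values.

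Near the centromeres of the autosomes MOF was also higher in *roX* mutants, with a median level of 0.07 against -0.20 in wild type and a difference of 0.27 over 3146 bins. The difference was 0.47 when 1 Mb in place of 2 Mb was taken and 0.17 when 3R was left out of the centring. A difference of 1 or more was found in 135 of these bins (4.29%), against 0.718% of all bins. The arms differed, with a median difference of 0.70 for 2L, 0.44 for 2R, 0.20 for 3L and 0.14 for 3R. Relative to the rest of its own arm, the stretch of 2L gained 0.53, that of 2R 0.24, that of 3L 0.17 and that of 3R 0.32. On 3R the stretch was below the arm in both genotypes, with medians of -0.29 in *roX* mutants and -0.46 in wild type, and on 3L it was above it in both, with 0.49 in *roX* mutants and 0.30 in wild type. Bins of the arms outside these stretches in the 2nd decile of wild type MOF had medians of -0.25 in *roX* mutants and -0.48 in wild type. Their median difference was 0.23, so the 0.14 of the 3R stretch did not exceed that of arm bins with a similar wild type level.

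On each arm the gain was larger within the first 1 Mb from the centromere end than at 1750 to 2000 kb. On 2L the median difference was 1.04 in the first 250 kb, with 0.77 in *roX* mutants and -0.31 in wild type, and it was 0.51 at 1750 to 2000 kb. On 2R it lay between 0.50 and 0.71 over the first 1500 kb and was 0.26 at 1500 to 2000 kb. On 3L it was 0.71 at 500 to 750 kb and 0.09 at 1750 to 2000 kb, and on 3R it reached 0.49 at 500 to 750 kb and was -0.07 at 1750 to 2000 kb. On 3R the wild type median also changed, from -0.67 at 500 to 750 kb to 0.15 at 1750 to 2000 kb. Arm bins outside these stretches with a wild type level from -1 to -0.5 had a median difference of 0.35. The part of the wild type level in the 3R pattern was not tested. The most changed bins were on 2L, at 22818001 to 22819000 with 1.48 in *roX* mutants and -0.83 in wild type and at 22744001 to 22745000 with 1.25 in *roX* mutants and -0.60 in wild type. Their mutant MSL1 levels were 2.60 and 2.76, and they rest on only 37 and 28 shared values. The other bins of the 5 most changed, at 22712001 to 22713000 and 22427001 to 22428000 on 2L and at 1191001 to 1192000 on 2R, had MSL1 levels between 0.53 and 0.81 and mutant MOF levels between 0.73 and 0.95.

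**Figure D5:**
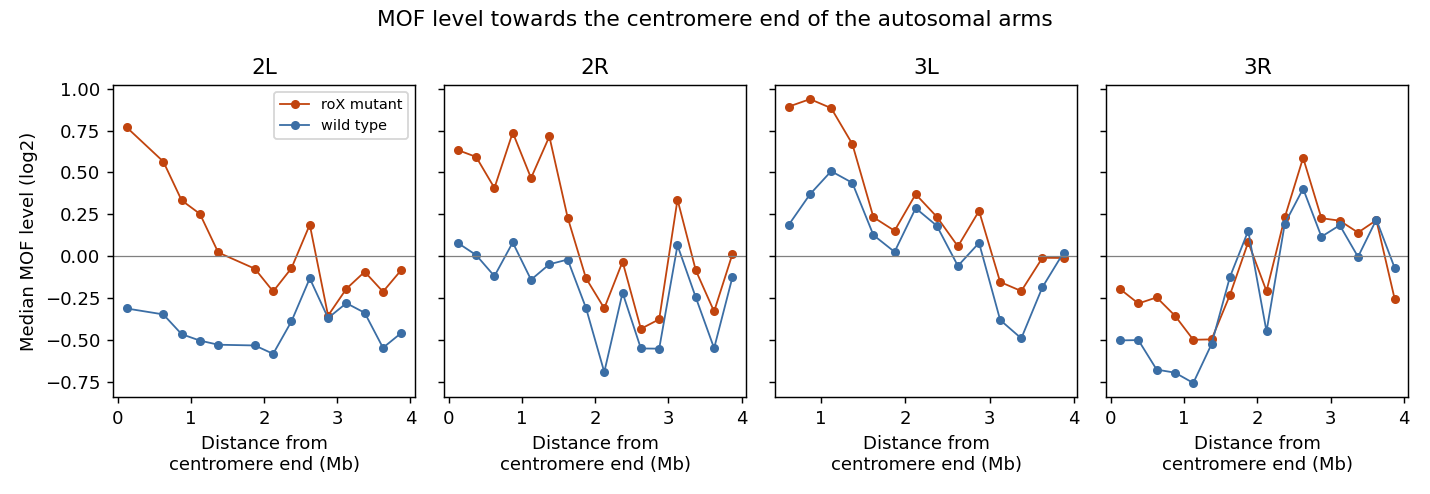
Median MOF level (y axis, log2 ratio minus the arm median) in *roX* mutants (orange) and wild type (blue) in steps of 250 kb from the centromere end of each autosomal arm (x axis, Mb), for steps with at least 20 bins. In the step nearest the centromere with a value, the mutant median exceeded the wild type median on each arm, with a median difference of 1.04 for 2L, 0.58 for 2R, 0.71 for 3L and 0.29 for 3R.

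The autosomal arms outside these stretches were not uniform. The median difference was 0.17 for 2L, 0.20 for 2R, 0.03 for 3L and -0.18 for 3R. The arm 3R stood apart in wild type, where its median level was 0.20 against -0.14 for 2L, -0.15 for 2R and -0.07 for 3L, while the mutant medians of the 4 arms lay between -0.06 and 0.03. Wild type coverage differed too, with values at 66.5% of all 3R positions against 37.8% for 2L, 47.1% for 2R and 47.2% for 3L. The part of coverage in the 3R level was not tested. The arms had 67 bins with a difference of -1 or below, or 0.104% of their bins, of which 54 were on 3R, where they made up 0.242% of 22347 bins. Both shares were below the 1.14% of all bins. The 201 arm bins with a difference of 1 or more made up 0.313%, also below the share over all bins.

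A few arm bins with a large gain had high mutant MSL1. The largest difference on the arms was on 3R at 9859001 to 9860000, with 1.39 in *roX* mutants and -0.61 in wild type and a mutant MSL1 level of 3.21. On 2R the bins at 2813001 to 2814000 and 5321001 to 5322000 had 0.90 and 0.80 in *roX* mutants against -0.82 and -0.77 in wild type, with MSL1 levels of 2.84 and 2.76. On 2L the bins at 2231001 to 2232000 and 17988001 to 17989000 had 0.18 and 0.61 in *roX* mutants against -1.51 and -0.93 in wild type, with MSL1 levels of 1.10 and 0.29. Over all 201 arm bins with a difference of 1 or more the median MSL1 level was 0.18. Their median MOF level was 0.29 in *roX* mutants and -0.82 in wild type, which their choice by the difference favours and which is given as a description.

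The largest losses on the arms did not reach the size of the larger losses on X. The bin with the most negative difference, on 2L at 537001 to 538000, had -0.48 in *roX* mutants and 0.85 in wild type. The next 4 were on 3R at 18397001 to 18398000, 27533001 to 27534000 and 19019001 to 19020000 and on 3L at 8209001 to 8210000, with mutant levels between -0.54 and -0.42 and wild type levels between 0.69 and 0.85. In comparison, the median difference over the X bins was -1.07 and the lower quartile -1.75. The highest wild type level was 1.19 on the arms and 3.38 on X, so the wild type range limits the loss that arm bins can show. In bins with a wild type level from 0.5 to 1 the median difference was -0.53 on X and -0.37 on the arms.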

How the data were processed

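The authors sequenced ChIP and input DNA on the AB SOLiD platform, kept reads with a unique match to release 5 of the reference, aligned with Bioscope, and deposited log2 ratios of ChIP to input every 10 bp. The scaling of ChIP to input, the rule for positions without a value and the read depth are not given in the sources used here, so no interval for counting reads could be computed. The depth behind a value is known only as the number of positions, 6896226 in *roX* mutants and 5403741 in wild type.

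Levels and differences were computed as described above, from bins of 1 kb with 25 or more of 100 possible shared values. The other *D. melanogaster* libraries were averaged in the same bins where they had 25 values and centred likewise. MSL1 bound regions were runs among the highest 1.5 percent of the values smoothed by medians of 500 bp windows, joined over gaps of 200 bp, of at least 200 bp and 5 units. The *D. simulans* files were not used. Named bins were taken by value, at least 20 kb apart, as the 5 highest in each MOF library on X, the 5 largest and smallest differences on the arms, the 5 largest in the pericentromeric stretches and on chromosome 4 and the 3 largest on the scaffolds. No gene is named and no sequence is shown, since a release 5 annotation or genome was not used here. The parts of the genome, bins and limits were chosen with earlier results of these data known.

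Alternatives were other bin lengths, limits, centring, scaling and pericentromeric lengths. The binning and centring were tested on simulated data with a constant shift on X and values missing at random. In the real data the X bins that could be compared depended on the MOF level, and the simulation does not cover this selection. Python 3.11.15, numpy 2.4.6, pandas 2.3.3, scipy 1.17.1 and matplotlib 3.10.9 were used.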

Additional observations from a re-analysis of the deposited data

How the results depend on the processing

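The X, chromosome 4, pericentromeric and decile results kept their direction under each of the 56 alternatives run for them. The share of X bins, which has no direction, had 15 more. Their sizes moved. For the X difference of -1.07, 500 bp and 5 kb bins gave -1.01 and -1.23, limits of 10 and 75 shared values gave -0.81 and -1.204, all values of each library gave -0.86 and leaving 1 arm out of the centring gave -1.18 to -1.03. For the share of X bins at -1 or below, 53.7%, the same bins and limits gave 50.6%, 63.2%, 43.7%, 61.1% and 45.4%, leaving out 1 arm gave up to 58.8%, and limits of -0.5 and -2 gave 74.3% and 15.9%. The chromosome 4 difference of 0.64 was 0.61 and 0.93 with limits of 10 and 75 values, with 9 bins left in the second case.
The mean over bins gave 0.70 for chromosome 4 and leaving out 1 arm gave 0.54 to 0.69. The pericentromeric difference of 0.27 was 0.25 with 5 kb bins, 0.33 with a limit of 75 values, 0.30 as a mean, 0.17 to 0.32 without 1 arm, 0.47 over 1 Mb and 0.22 over 3 Mb. The increase of the mutant level over the X deciles, 0.52, was 0.34 with 5 kb bins. When each library was divided by its median absolute deviation over the arms, in whose units the values then are, the results were -3.53 for X, 79.3% for the share, 2.28 for chromosome 4, 1.00 for the pericentromeric stretches and 2.16 for the deciles. Among alternatives added after the data were seen, the X difference was -1.25 as a difference of medians, -0.42 over the own bins of each library and -0.90 without bins at MSL1 bound regions, where 46.2% were at -1 or below, and the pericentromeric difference was 0.39 over own bins. No paired analysis was possible because each genotype has 1 MOF library. For the same reason no library could be left out, and the intervals that judged a move, which treat bins as independent, are too narrow for neighbouring bins.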
